A study of Mus musculus with 12 samples.

Results

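The genes described here are the 35 genes of cholesterol and fatty acid synthesis, picked by symbol from the 17723 genes of the deposited count table, and all 35 were present. They comprised 18 enzymes of the sterol pathway, 6 genes that regulate that pathway or carry sterols, and 11 genes of the fatty acid branch. Their levels were followed in bone marrow-derived macrophages (BMDMs), cultured macrophages that develop from marrow cells under the growth factor M-CSF. The BMDMs came from young adult wild-type C57BL/6 mice (C57Bl/6J in the study's methods) and were kept in medium with serum. Each treatment lasted 24 h. The 4 groups of 3 libraries were IL-13+DKK1 (2 ng/ml IL-13 and 30 ng/ml DKK1), DKK1 alone (30 ng/ml), IL-13 alone (2 ng/ml) and untreated. DKK1 is a secreted antagonist of Wnt signaling, and IL-13 is a type 2 cytokine that turns macrophages towards tissue repair. The labels number the libraries as replicates, and how many mice or cultures stand behind them is not given in the sources used here. The p-values therefore measure the spread between these libraries, which may be technical.

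Cholesterol is made from acetyl-CoA through mevalonate, isoprenoid diphosphates, squalene and lanosterol, and fatty acids are made from the same acetyl-CoA. The genes of both routes are known targets of the SREBP transcription factors. SREBP is held in the endoplasmic reticulum by INSIG while sterols are plentiful, and when sterols run low SCAP carries it to the Golgi, where it is cleaved and released to the nucleus. The form made from Srebf2 acts mostly on sterol genes and the form made from Srebf1 mostly on fatty acid genes, and in macrophages Srebf1, Fasn and Scd1 are also targets of the oxysterol receptor LXR.

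The total count per library lay between 32224036 and 40917086. All 6 macrophage markers on the list were detected, with summed levels in CPM (counts scaled to the size of each library) of 10360 to 10550 with IL-13+DKK1, 11420 to 11990 with DKK1, 8058 to 8577 with IL-13 and 9950 to 10190 in untreated BMDMs. The macrophage sums thus differed between the groups without overlap, highest with DKK1 and lowest with IL-13, and their part in the results was not tested. The single markers did not share this order. By group mean, Csf1r, Itgam and Fcgr1 were highest with DKK1, Adgre1 with IL-13+DKK1, Cd68 with IL-13 and Mertk in untreated BMDMs. The 8 neutrophil markers, all detected, summed to 690 to 849 CPM with IL-13+DKK1, 455 to 481 CPM with DKK1, 452 to 664 CPM with IL-13 and 671 to 747 CPM in untreated BMDMs. The neutrophil sums were thus lower in the libraries treated with 1 agent, where most sterol genes were higher, and their part in the results was not tested. Single neutrophil markers differed in their order. By group mean, S100a8, S100a9, Ltf, Mpo and Elane were highest with IL-13+DKK1, and Ly6g, Camp and Ngp in untreated BMDMs. The 7 stromal markers summed to 65.0 to 94.6 CPM with IL-13+DKK1, 58.9 to 94.3 CPM with DKK1, 63.3 to 128 CPM with IL-13 and 83.7 to 174 CPM in untreated BMDMs. Of 5 adipocyte markers, cells in which several of these genes are abundant, 1 was in the table and its highest level was 0.322 CPM. T and NK cell markers and mast cell and basophil markers were absent from the table. Mitochondrial genes took 1.32 to 1.39% of counts with IL-13+DKK1, 1.28 to 1.39% with DKK1, 1.35 to 1.62% with IL-13 and 1.06 to 1.11% in untreated BMDMs, and their part in the results was not tested either. In bulk RNA, fewer cells of a type and less RNA per cell cannot be told apart.

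Nearly all sterol enzymes rose with DKK1 and with IL-13 alone. With both agents together most of them still rose. Against DKK1 alone, however, 12 of the 18 were lower, where 19.1% of all genes tested were. Against IL-13 alone, 9 were lower, where 21.9% of all genes were, and 2, Mvd and Tm7sf2, were higher, where 22.5% were. The mean log2 level of the 18 sterol enzymes, relative to the mean of the untreated libraries, was 0.44, 0.58 and 0.60 in the IL-13+DKK1 libraries and 0.95, 0.96 and 0.99 in the DKK1 libraries. It was 0.64, 0.77 and 0.82 with IL-13, and -0.10, -0.01 and 0.11 in untreated BMDMs. No library of 1 group lay within the range of another group. In every group replicate 1 had the lowest mean of this branch. The 6 regulators had means of 0.38 to 0.43 with IL-13+DKK1, 0.52 to 0.57 with DKK1, 0.31 to 0.42 with IL-13 and -0.05 to 0.06 in untreated BMDMs. The 11 fatty acid genes had means of -0.14 to 0.09 with IL-13+DKK1, 0.34 to 0.50 with DKK1, 0.23 to 0.48 with IL-13 and -0.10 to 0.09 in untreated BMDMs. This mean gives each gene the same weight, and with IL-13+DKK1 it included the low values of Scd1 and Acss2 (log2 fold changes of -1.71 and -1.06 against untreated). In that comparison 6 of the 11 rose and 5 fell, with a median of 0.30, and their summed level of 666 to 688 CPM with IL-13+DKK1 was above the 545 to 568 CPM of untreated BMDMs without overlap.

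**Figure D1:**
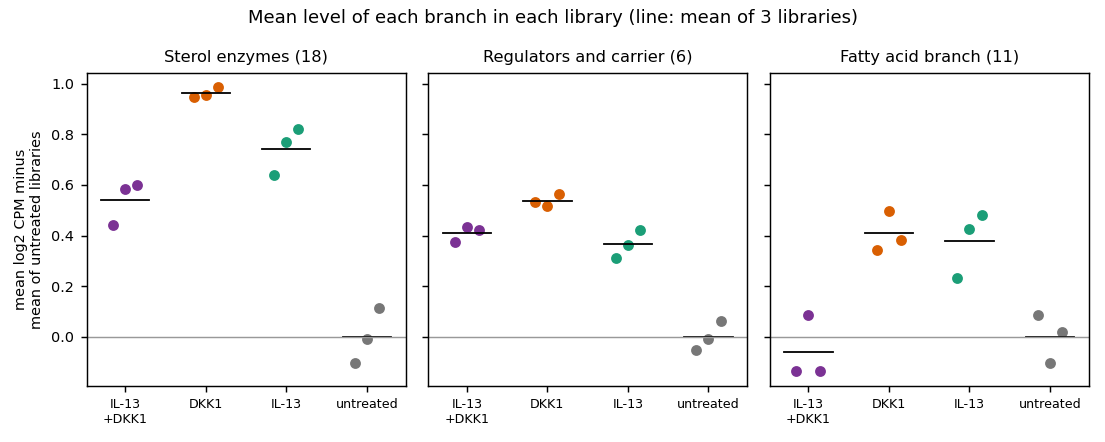
The y axis is the mean log2 CPM of a branch in a library minus the mean of the untreated libraries, and each point is 1 of 3 libraries in a group, with a line at the group mean. The sterol enzymes stood highest with DKK1 (0.95 to 0.99), lower with IL-13 (0.64 to 0.82) and lower again with IL-13+DKK1 (0.44 to 0.60). The fatty acid branch with IL-13+DKK1 (-0.134, 0.086 and -0.137) lay just outside the untreated range (-0.102 to 0.085). That mean gives Scd1 and Acss2 the same weight as the 9 other genes. The median log2 fold change of the 11 with IL-13+DKK1 against untreated was 0.30.

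Each comparison was tested gene by gene by the quasi-likelihood test of edgeR, with Benjamini-Hochberg adjustment over the 16306 genes that passed a filter on low counts. All 35 members passed that filter. A gene is said to have risen or fallen at an adjusted p under 0.05, and it is called changed where its absolute log2 fold change was also above 1, that is, a fold above 2.

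With DKK1 against untreated BMDMs, 29 of the 35 members rose, against 22.6% of all genes tested, and 2 fell, against 23% of all genes. All 18 sterol enzymes were among those that rose, with a median log2 fold change of 1.04, where the median of all genes was -0.04. Past the 2-fold threshold, 12 members were called higher, against 5.18% of all genes, and 0 lower, against 6.46%. They were 10 sterol enzymes, the sterol carrier Stard4 and the desaturase Scd2, with a largest adjusted p of 2.79e-07. With library size only in place of TMM factors 7 were called, and Pmvk, Idi1, Sqle, Msmo1 and Stard4 were not, with log2 fold changes from 0.91 to just under 1.

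With IL-13 against untreated BMDMs, 29 members rose, against 23.9% of all genes, and 1 fell, against 23.2%. Of the sterol enzymes 16 rose, and Tm7sf2 and Sc5d did not pass the test. The median log2 fold change of the 18 was 0.82, where that of all genes was -0.02. Called higher were 6 members, against 4.64% of all genes, and called lower were 0, against 3.49%. The 6 were Hmgcs1, Idi1, Fdps, Sqle, Cyp51 and Scd2, with a largest adjusted p of 5.06e-05. Without IL-13 replicate 1 or untreated replicate 3 Fads2 was called as well (1.07 and 1.08 on the log2 scale), and without untreated replicate 3 so was Fdft1 (1.03). With upper-quartile factors Idi1 (0.971) and Cyp51 (0.993) were not called, and with library size only Idi1 (0.998) was not. Leaving out each library in turn gave 4 to 8 members called higher.

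With IL-13+DKK1 against untreated BMDMs, 28 members rose, against 26% of all genes, and 7 fell, against 23.5%. The sterol median was 0.52, where that of all genes was -0.01, with 17 enzymes that rose and Sc5d that fell. Only Mvd was called higher, against 5.24% of all genes, and Acss2 and Scd1 were called lower, against 6.59%. The call of Mvd (log2 fold change of 1.03) was lost at 0.97 without IL-13+DKK1 replicate 2, at 0.997 without untreated replicate 1, at 0.98 with upper-quartile factors and at 0.97 with library size only. Without IL-13+DKK1 replicate 1, 3 members were called higher, Mvd, Fdps (1.05) and Scd2 (1.09), and without untreated replicate 3 they were Mvd, Fdps (1.11) and Hsd17b7 (1.03). These 3 comparisons share the untreated libraries.

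Against each single agent, more members fell with the combination than rose. With IL-13+DKK1 against IL-13, 16 members fell, against 21.9% of all genes, and 6 rose, against 22.5%. Of the sterol enzymes 9 fell and 2 rose, with a median log2 fold change of -0.28. With IL-13+DKK1 against DKK1, 23 members fell, against 19.1% of all genes, and 1 rose, against 20.2%. Of the sterol enzymes 12 fell and none rose, with a median of -0.40 and a highest value of -0.04. Few of these changes reached 2-fold. Against IL-13, only Fads2 was called lower, where 6.1% of all genes were, and no member was called higher, where 4.66% were. Against DKK1, Acss2 and Scd1 were called lower, where 2.29% of all genes were, and no member was called higher, where 3.22% were.

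The interaction, that is, the log2 fold change by DKK1 among IL-13-treated BMDMs minus that among BMDMs without IL-13, asks whether the effects of the 2 agents add up on the log2 scale. It was below 0 at the adjusted p for 29 members, against 14.2% of all genes, and above 0 for 1, Scap, against 12%. Past an absolute value of 1, it was called lower for 16 members, against 2.5% of all genes, and higher for 0, against 2.12%. The 16 were 12 sterol enzymes, Insig1, Stard4, Scd2 and Fads2, and the largest adjusted p among them was 0.000112. The sterol median was -1.05, where that of all genes was 0.02. In the order of group means, 12 of 18 sterol enzymes (66.7%) had both single agents above the combination and the combination above untreated, against 3.54% of all genes tested, 3 of 6 regulators and 2 of 11 fatty acid genes.

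**Figure D2:**
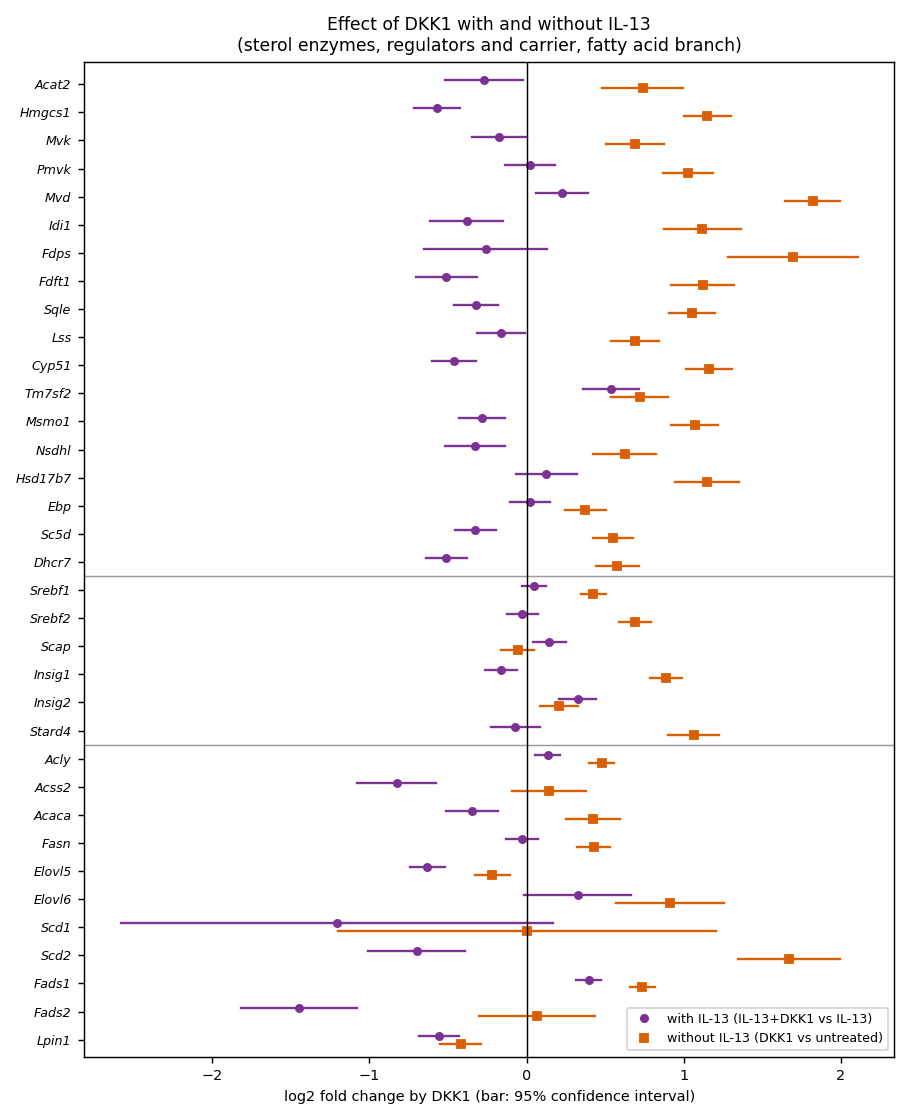
The x axis is the log2 fold change by DKK1 and each row is 1 gene, with circles for IL-13+DKK1 against IL-13, squares for DKK1 against untreated, and bars for 95% confidence intervals. For Hmgcs1 the effect of DKK1 was -0.57 with IL-13 and 1.15 without it, and the sterol circles lie left of their squares, with Tm7sf2 (0.54 and 0.72) as the 1 sterol pair whose intervals overlap.

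The first enzymes of the pathway build mevalonate and phosphorylate it. Hmgcs1, the synthase of HMG-CoA, stood at 52.0, 62.4 and 57.9 CPM with IL-13+DKK1, 86.0, 87.8 and 90.2 CPM with DKK1, 76.8, 88.9 and 90.5 CPM with IL-13, and 35.6, 40.5 and 42.8 CPM in untreated BMDMs. The 2 single agents gave almost the same level, the combination lay between them and untreated, and untreated overlapped with no other group. Its log2 fold change was 1.15 ± 0.07 (SE) with DKK1, 1.11 ± 0.07 with IL-13 and 0.54 ± 0.07 with both, and the interaction was -1.72 ± 0.10 (edgeR adjusted p = 2.72e-11). Acat2, the cytosolic thiolase that joins acetyl-CoA units, had 7.68, 6.72 and 8.59 CPM with IL-13+DKK1, 9.88, 9.64 and 8.39 CPM with DKK1, 8.41, 9.22 and 10.1 CPM with IL-13, and 6.10, 5.55 and 5.06 CPM in untreated BMDMs. All treated libraries were above all untreated ones, while the combination overlapped with each single agent. Its interaction of -1.01 fell short of the 2-fold threshold without IL-13+DKK1 replicate 2 (-0.92), DKK1 replicate 1 (-0.99), IL-13 replicate 3 (-0.95) or untreated replicate 3 (-0.95). It did so too with upper-quartile factors (-0.954) and with library size only (-0.935). Mvk, the mevalonate kinase, rose by a log2 fold change of 0.69 with DKK1, 0.68 with IL-13 and 0.51 with both, so it was never called.

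Pmvk and Mvd, which turn mevalonate phosphate into isopentenyl diphosphate, had higher levels with DKK1 than with IL-13, a difference that was not tested. Mvd, the decarboxylase (GRCm39 chr8:123160336-123170324), stood at 37.1, 45.1 and 43.1 CPM with IL-13+DKK1, 70.6, 72.6 and 73.9 CPM with DKK1, 31.1, 35.003 and 41.1 CPM with IL-13, and 19.5, 20.5 and 21.4 CPM in untreated BMDMs. The DKK1 libraries were far above all others, and the ranges of the combination and IL-13 overlapped. Its rise of 1.82 ± 0.08 (SE) on the log2 scale was the largest of the 35 members with DKK1, and it was 0.80 ± 0.09 with IL-13. Pmvk had 16.8, 16.5 and 18.3 CPM with IL-13+DKK1, 25.7, 27.5 and 25.2 CPM with DKK1, 15.9, 16.9 and 18.2 CPM with IL-13, and 12.8, 12.9 and 12.6 CPM in untreated BMDMs. Here the combination was at the level of IL-13, with a log2 difference of 0.02 (95% interval -0.14 to 0.18). The interaction of Pmvk, at -1.01, was just past the threshold, and it no longer passed it without IL-13+DKK1 replicate 1 (-0.99) or 2 (-0.98), DKK1 replicate 2, IL-13 replicate 3 (-0.96) or untreated replicate 3. With size factors by the upper quartile the rise of Pmvk with DKK1 was 0.97 and its interaction was -0.951. With library size only they were 0.91 and -0.933.

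Idi1, Fdps and Fdft1 take isopentenyl diphosphate through farnesyl diphosphate to squalene. Idi1, the isomerase, had 9.01, 9.78 and 9.94 CPM with IL-13+DKK1, 14.2, 13.7 and 12.2 CPM with DKK1, 11.1, 13.2 and 13.1 CPM with IL-13, and 5.43, 5.73 and 7.31 CPM in untreated BMDMs. The 3 treated groups lay above untreated, and the combination below both single agents with no overlap. Its log2 rise with IL-13, 1.02, was close to the threshold and lay between 0.93 and 0.98 without IL-13 replicate 2 or 3 or untreated replicate 1 or 2. Fdft1, the squalene synthase at which carbon is committed to sterols, stood at 22.0, 28.9 and 28.3 CPM with IL-13+DKK1, 39.9, 43.9 and 45.4 CPM with DKK1, 35.2, 38.2 and 39.7 CPM with IL-13, and 17.4, 19.6 and 22.4 CPM in untreated BMDMs. The lowest IL-13+DKK1 library was within the untreated range, whereas the single agents gave levels well above it. Its interaction was -1.63 ± 0.13 (SE).

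Fdps, the farnesyl diphosphate synthase, had only 2.42, 3.68 and 3.11 CPM with IL-13+DKK1, 5.26, 4.63 and 6.07 CPM with DKK1, 3.67, 4.01 and 3.41 CPM with IL-13, and 1.26, 1.60 and 2.06 CPM in untreated BMDMs. On the log2 scale it rose by 1.69 with DKK1 and 1.17 with IL-13, with an interaction of -1.95 ± 0.27 (SE). The count of this gene is uncertain, because the annotation holds 4 pseudogene copies at 95% identity or more over at least 300 bases, and 3 of them are in the count table. Among them, Gm3571 had higher mean levels than Fdps itself, at 13.2 CPM with IL-13+DKK1, 15.5 CPM with DKK1, 16.5 CPM with IL-13 and 8.40 CPM in untreated BMDMs. Gm5873 did too, at 6.73 CPM with IL-13+DKK1, 7.62 CPM with DKK1, 8.02 CPM with IL-13 and 3.53 CPM in untreated BMDMs. Both copies were highest with IL-13, whereas Fdps was highest with DKK1. Reads of the gene and its copies may have been split between them, and which of them the reads came from was not tested. Gm3571 moved in the same directions as Fdps, though less with DKK1. Its log2 fold changes were 0.88 with DKK1, 0.97 with IL-13 and 0.65 with both, and its interaction was -1.21. The Idi1 copy Idi1-ps1 moved in the same directions as Idi1, with means of 5.15 CPM with IL-13+DKK1, 7.05 CPM with DKK1, 7.69 CPM with IL-13 and 3.36 CPM in untreated BMDMs.

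The enzymes that close and trim the sterol rings had both single agents above the combination, with one exception among those called. Sqle, the squalene epoxidase and a slow step of the pathway, stood at 47.5, 54.7 and 55.0 CPM with IL-13+DKK1, 59.7, 62.5 and 65.7 CPM with DKK1, 61.2, 64.7 and 70.7 CPM with IL-13, and 27.5, 30.7 and 32.5 CPM in untreated BMDMs. The rise with the combination was 0.80 ± 0.07 (SE) on the log2 scale, and its libraries lay below those of the single agents with no overlap. Its rise with DKK1, 1.05, was 0.99 without untreated replicate 1. Cyp51, the lanosterol demethylase, had 51.7, 56.5 and 57.3 CPM with IL-13+DKK1, 83.5, 81.8 and 83.3 CPM with DKK1, 70.4, 77.5 and 80.3 CPM with IL-13, and 33.0, 35.8 and 42.4 CPM in untreated BMDMs. The 4 groups were fully separate, in the order DKK1, IL-13, combination, untreated. Its log2 rise with IL-13 was 1.04, and it fell short of the threshold without IL-13 replicate 3 or, at 0.96, without untreated replicate 1.

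Msmo1, the methylsterol oxidase, was the most counted of the sterol enzymes, with 64.3, 73.2 and 74.8 CPM with IL-13+DKK1, 103, 96.1 and 106 CPM with DKK1, 77.5, 88.6 and 92.8 CPM with IL-13, and 43.8, 48.1 and 53.4 CPM in untreated BMDMs. It again gave 4 separate groups in that order. Hsd17b7, a ketoreductase of the same demethylation, was the exception, at 14.8, 16.0 and 14.996 CPM with IL-13+DKK1, 17.0, 17.9 and 18.2 CPM with DKK1, 13.4, 13.2 and 15.4 CPM with IL-13, and 7.86, 7.07 and 9.001 CPM in untreated BMDMs. The combination here overlapped with IL-13, with a log2 difference of 0.13 (95% interval -0.07 to 0.32). The interaction of Hsd17b7 was -1.02, and it was -0.95 without IL-13 replicate 3 and -0.94 without untreated replicate 2. With upper-quartile factors it was -0.965 and with library size only -0.947. Dhcr7, the reductase of the last step, had its highest levels with IL-13, at 25.7, 27.2 and 28.1 CPM with IL-13+DKK1, 29.4, 32.2 and 31.4 CPM with DKK1, 37.9, 36.8 and 40.7 CPM with IL-13, and 21.6, 21.2 and 19.6 CPM in untreated BMDMs. Its rises of 0.58 with DKK1 and 0.89 with IL-13 stayed under 2-fold, and the interaction was -1.09 ± 0.09 (SE).

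**Figure D3:**
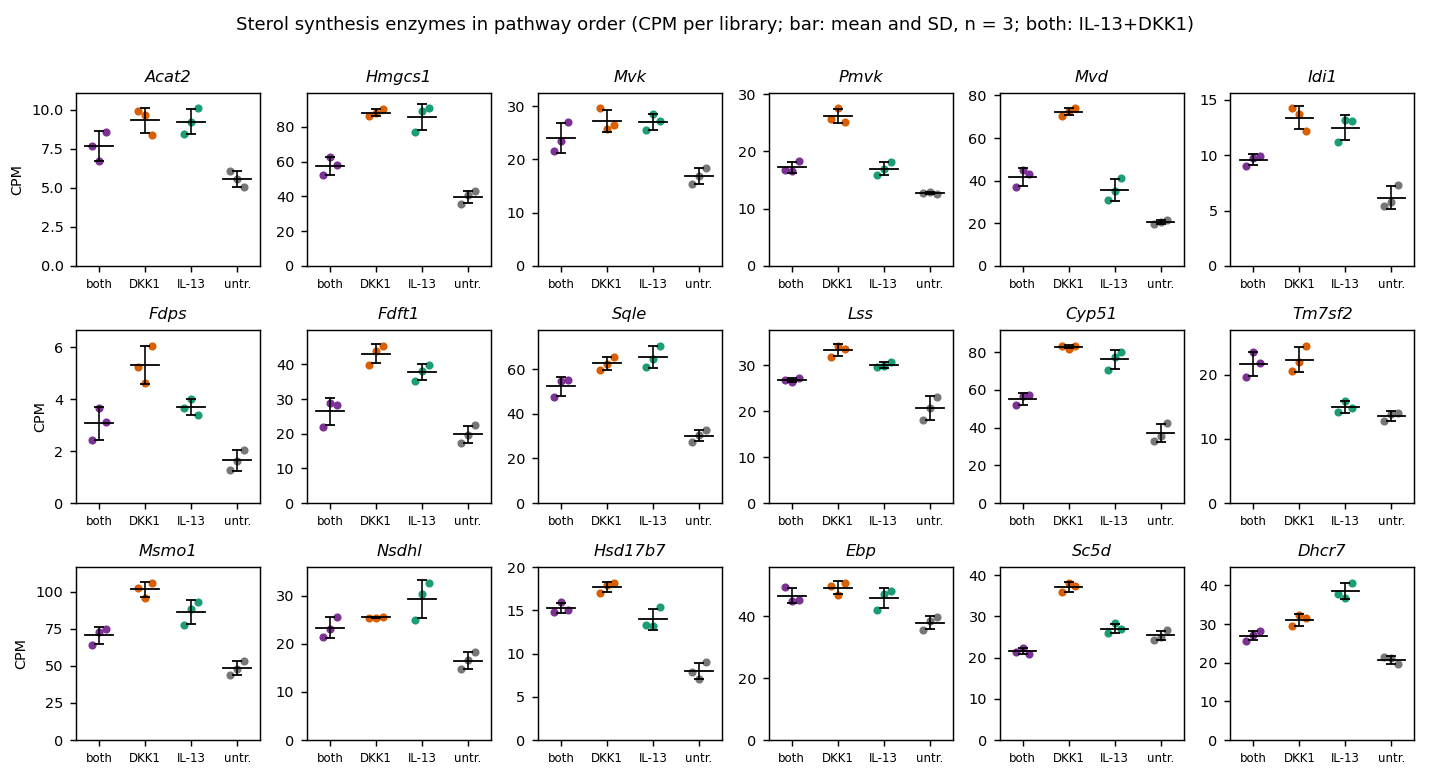
Each panel is 1 sterol enzyme in pathway order, with CPM on the y axis from 0, points for the 3 libraries of each group and bars for mean and SD. In the Mvd panel the DKK1 libraries lie at 70.6 to 73.9 CPM above all others, and in the Sc5d panel the IL-13+DKK1 libraries lie lowest.

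Of the sterol enzymes that were never called, Lss and Nsdhl rose in all 3 treatments, by 0.69 and 0.62 on the log2 scale with DKK1 and by 0.54 and 0.83 with IL-13. Ebp, the sterol isomerase, rose by 0.38 with DKK1, the smallest rise of the 18 in that comparison, by 0.27 with IL-13 and by 0.29 with both. The Ebp libraries of the combination overlapped with those of each single agent, with a log2 difference of 0.02 from IL-13. Tm7sf2 and Sc5d were the sterol enzymes that did not rise in all 3 treatments. Tm7sf2, a sterol reductase, averaged 21.7 ± 1.92 CPM with IL-13+DKK1, 22.3 ± 2.01 CPM with DKK1, 14.96 ± 0.89 CPM with IL-13 and 13.6 ± 0.73 CPM in untreated BMDMs (SD, n = 3 each). It rose with DKK1 and with both, did not pass the test with IL-13 (log2 fold change of 0.14, adjusted p = 0.20), and its interaction of -0.18 (95% interval -0.44 to 0.07) did not pass either. Its exons overlap those of Vps51 on the same strand, so part of its count is uncertain. Sc5d, the sterol desaturase before the last step, averaged 21.5 ± 0.78 CPM with IL-13+DKK1, 37.1 ± 1.17 CPM with DKK1, 27.0 ± 1.16 CPM with IL-13 and 25.4 ± 1.19 CPM in untreated BMDMs. It rose by 0.55 with DKK1 and fell by 0.24 with both (adjusted p = 0.0037), and it was the only sterol enzyme of the 18 that fell against untreated in any of the 3 comparisons.

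Sterol genes are known for a shared promoter design in which SREBP binds next to the CCAAT-binding factor NF-Y and the GC-box factor Sp1, so the promoters of the members that moved together were read. RefSeq promoter windows, of 250 bases before to 50 bases after a start, matched 28 of the 35 members, from a table of build GRCm38.p6. Searched on both strands, the letters CCAAT were in a window of 14 of 15 sterol enzymes (93.3%), 4 of 5 regulators and 4 of 8 fatty acid genes, against 42.9% of the 10652 tested genes with a window and 41.1% of all 27025 genes in the table. The GC box letters GGGCGG were in 14 of 15 sterol enzymes, 5 of 5 regulators and 3 of 8 fatty acid genes (37.5%), against 66.2% of the tested genes. The sterol element letters TCACNCCAC were in 1 of 28 members, Hmgcs1, against 1.38% of the tested genes, and the E-box letters CACGTG were in 6 of 28 members, 3 of them sterol enzymes, 2 regulators and 1 a fatty acid gene, against 11.5%. None of these strings contains another. A match is a string of letters and says nothing of binding here, and no match says only that these letters are not in the window. Some genes have more than 1 window, and a gene was counted once if any of its windows matched.

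The 250 bases before the RefSeq start are shown for Hmgcs1, Cyp51 and Hsd17b7, which were called with DKK1 and in the interaction, and for Fads2, which was called in the interaction but did not pass the test with DKK1. Matched exactly to GRCm39, they lie at chr13:120151637-120151886 on the plus strand, and on the minus strand at chr5:4154698-4154947, chr1:169796775-169797024 and chr19:10078868-10079117. Capitals mark CCAAT or its reverse complement and, in Hmgcs1, the sterol element, whose first base is 137 bases before the start.
Hmgcs1: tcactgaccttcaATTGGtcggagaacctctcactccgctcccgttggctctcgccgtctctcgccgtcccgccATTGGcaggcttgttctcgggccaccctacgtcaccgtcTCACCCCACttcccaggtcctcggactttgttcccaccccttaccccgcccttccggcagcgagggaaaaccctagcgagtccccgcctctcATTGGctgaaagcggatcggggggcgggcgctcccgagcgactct
Cyp51: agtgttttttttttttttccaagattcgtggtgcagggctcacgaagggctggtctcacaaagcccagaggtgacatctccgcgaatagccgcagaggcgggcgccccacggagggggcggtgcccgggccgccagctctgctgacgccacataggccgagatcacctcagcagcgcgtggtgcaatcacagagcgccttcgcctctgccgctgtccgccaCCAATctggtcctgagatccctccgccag
Hsd17b7: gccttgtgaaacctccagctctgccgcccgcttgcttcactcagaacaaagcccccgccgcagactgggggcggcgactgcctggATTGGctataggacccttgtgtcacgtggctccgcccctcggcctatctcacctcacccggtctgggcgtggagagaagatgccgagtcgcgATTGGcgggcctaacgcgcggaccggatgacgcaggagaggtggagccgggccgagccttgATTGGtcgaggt
Fads2: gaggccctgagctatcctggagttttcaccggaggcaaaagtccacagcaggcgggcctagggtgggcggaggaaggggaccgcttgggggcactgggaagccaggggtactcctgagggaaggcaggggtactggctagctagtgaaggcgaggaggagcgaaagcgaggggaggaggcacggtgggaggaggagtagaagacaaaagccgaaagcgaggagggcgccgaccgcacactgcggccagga
Hmgcs1 and Hsd17b7 each hold 3 such CCAAT boxes in this stretch, Cyp51 holds 1 at 29 bases before the start, and Fads2 holds none.

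The regulators split into those that followed the sterol enzymes and those that did not. Srebf2, the gene of the SREBP form that acts on sterol genes, stood at 275, 285 and 284 CPM with IL-13+DKK1, 295, 306 and 314 CPM with DKK1, 278, 281 and 301 CPM with IL-13, and 177, 184 and 207 CPM in untreated BMDMs. All treated libraries lay above untreated, and the 3 treated groups lay close together, with the combination lowest of the 3 by group mean. The interaction of Srebf2 was -0.715 ± 0.067 (SE, edgeR adjusted p = 4.1e-08). Its log2 rise was 0.57 ± 0.05 (SE) with both, 0.69 ± 0.05 with DKK1 and 0.60 ± 0.05 with IL-13, and the difference of the combination from IL-13 did not pass the test (-0.03, 95% interval -0.12 to 0.07). Srebf1 moved less, with 120, 118 and 120 CPM with IL-13+DKK1, 129, 128 and 131 CPM with DKK1, 111, 115 and 119 CPM with IL-13, and 98.1, 95.4 and 94.5 CPM in untreated BMDMs. It rose in every treatment, by at most 0.43 on the log2 scale, and its interaction was -0.377 ± 0.052 (SE, edgeR adjusted p = 8.99e-06). Scap, the SREBP escort, went the other way, at 55.7, 56.7 and 59.9 CPM with IL-13+DKK1, 62.8, 63.1 and 65.8 CPM with DKK1, 55.1, 49.6 and 51.3 CPM with IL-13, and 66.5, 63.9 and 68.9 CPM in untreated BMDMs. It fell by 0.35 with IL-13 and by 0.21 with both, and with DKK1 the change of -0.06 did not pass the test. Its interaction of 0.20, the 1 above 0 among the members, had an adjusted p of 0.039 in edgeR, and it was lost without any one of 9 of the 12 libraries, each of the DKK1 libraries among them, when 0 members passed.

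The 2 INSIG genes, whose proteins hold SREBP back, had different patterns. Insig1, itself a known SREBP target, had 93.6, 104 and 102 CPM with IL-13+DKK1, 144, 142 and 149 CPM with DKK1, 107, 115 and 114 CPM with IL-13, and 73.9, 77.4 and 83.3 CPM in untreated BMDMs. Its 4 groups were separate, with DKK1 on top, and the log2 difference of the combination from IL-13 was -0.16. Insig1 rose by 0.89 with DKK1 and its interaction was -1.05 ± 0.07 (SE), or -0.997 with upper-quartile factors and -0.98 with library size only. Insig2 was highest in the combination, at 46.2, 47.1 and 44.4 CPM with IL-13+DKK1, 35.7, 33.0 and 33.8 CPM with DKK1, 34.6, 36.6 and 38.5 CPM with IL-13, and 30.7, 29.6 and 28.6 CPM in untreated BMDMs. Each IL-13+DKK1 library of Insig2 lay above all others, the single agents overlapped, and the interaction of 0.12 (95% interval -0.05 to 0.29) did not pass the test. Stard4, a soluble sterol carrier, followed the sterol enzymes more closely, at 56.5, 61.0 and 58.5 CPM with IL-13+DKK1, 70.4, 69.4 and 72.5 CPM with DKK1, 54.8, 62.6 and 67.4 CPM with IL-13, and 28.8, 35.1 and 37.8 CPM in untreated BMDMs. The combination of Stard4 overlapped with IL-13 but not with DKK1. Its rise with DKK1 was 1.06, or 0.96 without untreated replicate 1 and 0.94 with library size only, and its interaction was -1.13 ± 0.11 (SE).

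**Figure D4:**
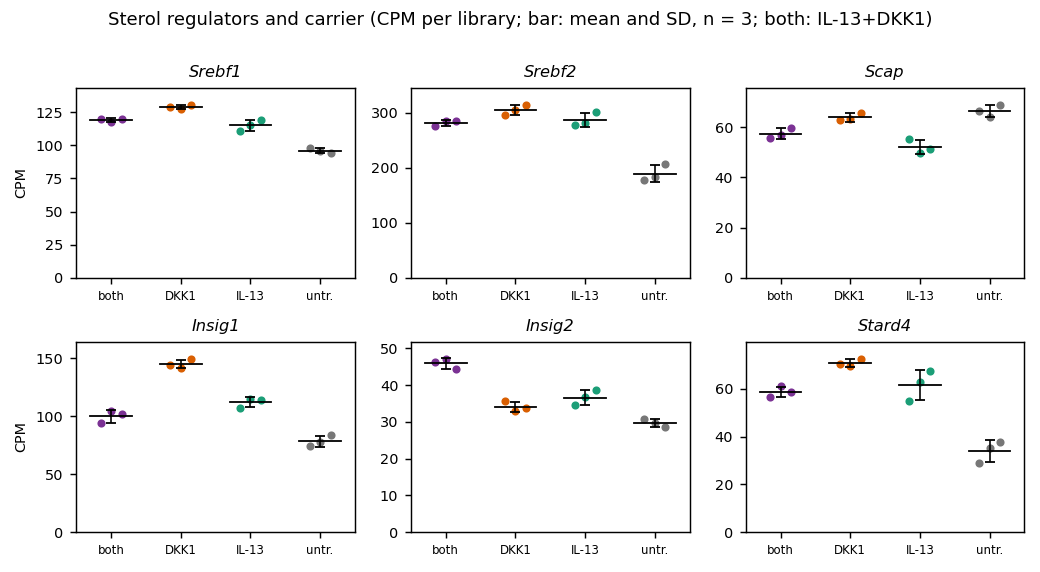
Each panel is 1 regulator or carrier gene, with CPM on the y axis from 0, points for the 3 libraries of each group and bars for mean and SD. Insig1 is highest with DKK1 (142 to 149 CPM), while Insig2 is highest with IL-13+DKK1 (44.4 to 47.1 CPM).

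The fatty acid branch did not move as one against untreated BMDMs. Its interaction, however, was below 0 at the adjusted p for 8 of the 11 genes, against 14.2% of all genes. It was above 0 for 0, against 12% of all genes, and the median interaction of the branch was -0.588. The genes that make cytosolic acetyl-CoA and join it into palmitate are Acly, Acss2, Acaca and Fasn. Acly, the citrate lyase, rose by 0.48 on the log2 scale with DKK1, 0.17 with IL-13 and 0.30 with both, over group means of 208 to 290 CPM. Fasn, the fatty acid synthase, rose by 0.43, 0.37 and 0.34 in those comparisons, and its combination libraries overlapped with those of IL-13. Acaca, the acetyl-CoA carboxylase of the rate-limiting step, was highest with IL-13, where it rose by 0.78, against 0.43 with DKK1 and with both. Acss2, which makes acetyl-CoA from acetate, had 4.49, 5.19 and 4.01 CPM with IL-13+DKK1, 10.5, 10.6 and 10.5 CPM with DKK1, 8.02, 7.22 and 9.08 CPM with IL-13, and 9.49, 8.97 and 10.1 CPM in untreated BMDMs. Only the combination was low, with every library under those of the other groups. Acss2 fell by 1.06 ± 0.12 (SE) on the log2 scale against untreated, or by 0.97 without IL-13+DKK1 replicate 3, and by 1.204 ± 0.12 against DKK1, and with neither single agent did the change pass the test (adjusted p of 0.33 with DKK1 and 0.10 with IL-13).

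The desaturases insert double bonds. Scd2, a stearoyl-CoA desaturase on chromosome 19 (chr19:44281613-44295303), stood at 21.9, 38.5 and 37.7 CPM with IL-13+DKK1, 52.0, 61.9 and 58.0 CPM with DKK1, 41.3, 56.1 and 62.4 CPM with IL-13, and 18.7, 18.3 and 16.9 CPM in untreated BMDMs. It behaved like the sterol enzymes, with both single agents above the combination and the combination above untreated without overlap, though IL-13+DKK1 replicate 1 lay near the untreated level. The log2 rise was 1.67 ± 0.16 (SE) with DKK1, 1.57 ± 0.16 with IL-13 and 0.87 ± 0.16 with both, and the interaction of -2.37 ± 0.22 (adjusted p = 2.35e-08) was the lowest of the 35 members. Scd1, the related desaturase of liver and fat, was near the limit of detection, at 0.12, 0.35 and 0.05 CPM with IL-13+DKK1, 0.48, 0.68 and 0.59 CPM with DKK1, 0.24, 0.55 and 0.44 CPM with IL-13, and 1.07, 0.18 and 0.48 CPM in untreated BMDMs. It was called lower with both against untreated (log2 fold change of -1.71, adjusted p = 0.032), where the groups overlapped, and against DKK1 (-1.71, adjusted p = 0.041), where they did not. The first call was lost without IL-13+DKK1 replicate 1 (-1.51) or 3 (-1.28) or untreated replicate 1 (-0.91). The second was lost without any one of 8 libraries, each of the DKK1 libraries and IL-13+DKK1 replicates 1 and 3 among them, with adjusted p values of up to 0.17. Scd1 and Scd2 are 87.6% identical over 1196 aligned bases, so single reads of one may be counted for the other. Scd1 also counted as a copy of Scd2 at 95% identity or more, with a longest match of 623 bases.

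Fads1 and Fads2, which lie in a cluster on chromosome 19 (GRCm39 chr19:10160167-10174241 and chr19:10038130-10079203) and act on polyunsaturated fatty acids, went separate ways. Fads1 averaged 199 ± 3.599 CPM with IL-13+DKK1, 215 ± 4.64 CPM with DKK1, 152 ± 5.45 CPM with IL-13 and 129 ± 4.93 CPM in untreated BMDMs (SD, n = 3 each). It rose by 0.74 on the log2 scale with DKK1, 0.63 with both and 0.23 with IL-13. Fads2 had 3.49, 4.45 and 4.06 CPM with IL-13+DKK1, 4.96, 7.29 and 5.94 CPM with DKK1, 8.59, 11.9 and 12.3 CPM with IL-13, and 4.39, 6.00 and 6.99 CPM in untreated BMDMs. Fads2 was thus highest with IL-13 alone, with every library above all others, and the combination lay at or under the low end of the untreated range. It fell by 0.53 on the log2 scale with both against untreated (adjusted p = 0.020), where the groups overlapped. It rose by 0.92 ± 0.17 (SE) with IL-13, had a log2 fold change of -1.45 ± 0.18 with both against IL-13 (adjusted p = 4.92e-07), and its interaction was -1.52 ± 0.25. Without IL-13+DKK1 replicate 2, Scd1 was called lower in that comparison as well (-2.24, adjusted p = 0.036).

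The elongases and Lpin1 were the members lowered by DKK1 or least alike. Elovl5, the elongase of polyunsaturated chains, averaged 38.97 ± 0.23 CPM with IL-13+DKK1, 43.5 ± 1.13 CPM with DKK1, 60.4 ± 4.23 CPM with IL-13 and 50.6 ± 1.58 CPM in untreated BMDMs. It fell by 0.22 on the log2 scale with DKK1 and by 0.38 with both, and rose by 0.26 with IL-13. Lpin1, a phosphatidate phosphatase on the way to triglycerides, had the same directions, falling by 0.42 with DKK1 and by 0.36 with both and rising by 0.20 with IL-13. Elovl6, the elongase of palmitate, was low, between 2.93 and 5.52 CPM in the group means, and it rose by 0.91 with DKK1 and by 0.51 with both, with no change past the test with IL-13 (0.19, adjusted p = 0.40).

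**Figure D5:**
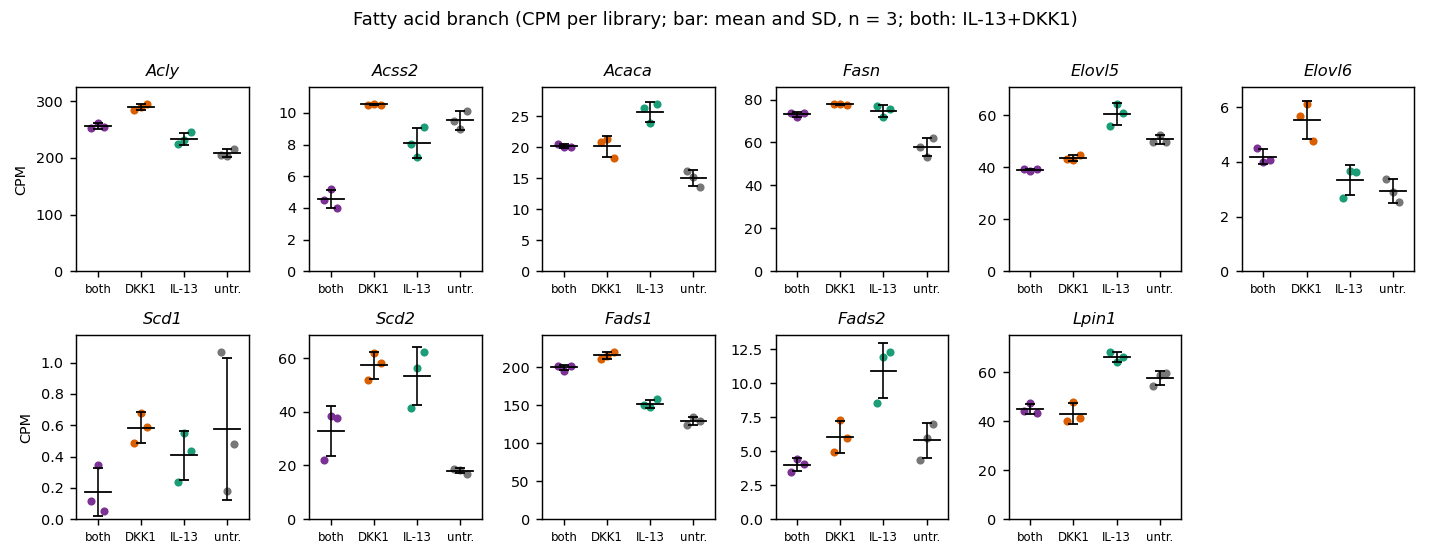
Each panel is 1 gene of the fatty acid branch, with CPM on the y axis from 0, points for the 3 libraries of each group and bars for mean and SD. Acss2 is low only with IL-13+DKK1 (4.01 to 5.19 CPM), Fads2 is high only with IL-13 (8.59 to 12.3 CPM), and Scd1 stays at or under 1.07 CPM in every library.

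Per length, the members spanned a wide range. Levels of different genes can be set side by side only roughly in this way. The length used was that of all annotated exons, from 2730 bases for Mvd to 19789 for Acss2, not that of the transcripts expressed. On the scale of CPM per kilobase of annotated exons, the highest 3 in the IL-13+DKK1 libraries were Fads1 at 35.6, Srebf2 at 30.1 and Insig1 at 20.5, and in untreated BMDMs Fads1 at 23.1, Srebf2 at 20.3 and Srebf1 at 16.3. Among the sterol enzymes Mvd was the highest with DKK1, at 26.5 CPM per kilobase, whereas Ebp was the highest in untreated BMDMs, at 9.28, with Mvd at 7.503. Scd1 was the lowest member in all 4 groups.

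The other genes of the pathway moved in both directions. Of 32 genes for sterol handling, SREBP processing, fatty acid activation and triglyceride synthesis, 31 could be tested, and Mlxipl could not. With DKK1, 12 of the 31 rose and 9 fell, with IL-13 8 rose and 9 fell, and with both 10 rose and 9 fell, next to the shares of all genes given above. Their interaction was below 0 for 9 and above 0 for 5, with none past the 2-fold threshold. Only Lipa, the lysosomal acid lipase that frees cholesterol from its esters, was called. It stood at 490, 463 and 459 CPM with IL-13+DKK1, 505, 496 and 522 CPM with DKK1, 2128, 2076 and 2147 CPM with IL-13, and 2762, 2680 and 2692 CPM in untreated BMDMs. The libraries with DKK1 in the medium were far below those without it, with log2 fold changes of -2.42 with DKK1, -2.53 with both, and -2.17 for both against IL-13. With IL-13 alone the fall was 0.36.

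Some counts depend on how reads in overlapping genes were assigned, which is not given in the sources used here. The exons of Cyp51 overlap those of Akap9 and other genes on the opposite strand over 28.3% of their length, those of Fdft1 overlap Ctsb over 24.8%, and those of Mvd overlap another gene model over 20.5%. Ctsb, a cathepsin, averaged 8640 CPM with IL-13+DKK1, 8050 CPM with DKK1, 10100 CPM with IL-13 and 8540 CPM in untreated BMDMs. Akap9 averaged 60.3 CPM with IL-13+DKK1, 69.8 CPM with DKK1, 42.7 CPM with IL-13 and 51.7 CPM in untreated BMDMs. Its log2 fold change was 0.22 with both, 0.43 with DKK1 and -0.27 with IL-13, all past the test. What part reads of these neighbours have in the counts of Cyp51 and Fdft1 was not tested. Acat2 shares bases with Tcp1 and with its copy Acat3, and Acat3 was at most 0.521 CPM in a group mean.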

How the data were processed

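Bulk RNA seq was run on 12 BMDM samples with stranded libraries of rRNA-depleted total RNA. Read quality was assessed by the authors (FastQC 0.11.9), alignment to GRCm39 used STAR 2.7.6a, and featureCounts gave the raw counts of 17723 genes that were deposited. The study's own comparisons used DESeq2 1.30.0. These names and versions are also in the submitters' processing notes, while for featureCounts no version, annotation or strand setting is given in the sources used here. No gene in the table had a maximum under 11 counts, so lower genes had been left out. Of the counts between 1 and 20, 76.0% were even, against 51.6% of high counts, so low counts may hold fewer independent reads than they show.

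Every column was matched to its sample by name. Genes were filtered with filterByExpr (minimum count 10, minimum total 15), scaled by TMM (factors 0.945 to 1.04) and fitted with 1 mean per group over all 12 libraries with edgeR 4.0.16 in R 4.3.3 (quasi-likelihood test, Benjamini-Hochberg). Both thresholds, 0.05 for the adjusted p and a log2 fold change above 1 in either direction, follow the study's methods. CPM are TMM-scaled. An SE was obtained from the log2 fold change and the quasi-likelihood F, as size over root F, and intervals are at 95%. Pairs of replicates differed by 4.31 to 9.93 times the counting error in chi-square per gene, so none was a copy. The labels give no batch.

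The members and lists were chosen with earlier results of these data known. Every member is accounted for, and values per library are given for members called in at least 1 comparison and for Srebf1, Srebf2, Scap, Insig1 and Insig2. Of the other genes, Lipa was named because it was called, and Gm3571, Gm5873, Idi1-ps1, Gm5182, Ctsb, Akap9, Tcp1 and Acat3 were named after their values were seen. Positions, exon lengths and overlaps came from GENCODE vM39, copies from blastn 2.17.0, and promoters from RefSeq. The alternatives were RLE, upper-quartile and library-size scaling, no filter, DESeq2 1.42.0, a replicate block, only the groups compared, and each library left out. The functions were tested on simulated data. Some genes are not reported here.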

Additional observations from a re-analysis of the deposited data

Results flagged for a closer look

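The effect of DKK1 differed between BMDMs with IL-13 and BMDMs without it for 16 members, by the interaction term of edgeR's quasi-likelihood test (adjusted p of at most 0.000112, absolute value above 1). Among the mevalonate and squalene enzymes the differences on the log2 scale were -1.01 for Acat2, -1.72 for Hmgcs1, -1.01 for Pmvk, -1.59 for Mvd, -1.50 for Idi1, -1.95 for Fdps, -1.63 for Fdft1 and -1.37 for Sqle. Among the later sterol enzymes they were -1.62 for Cyp51, -1.35 for Msmo1, -1.02 for Hsd17b7 and -1.09 for Dhcr7. For the regulator Insig1 the difference was -1.05, for the carrier Stard4 -1.13, and for the desaturases Scd2 and Fads2 -2.37 and -1.52. For Fads2 the effect of DKK1 was -1.45 with IL-13 and 0.07 without, while for Pmvk it was 0.02 with IL-13 and 1.03 without.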

How the results depend on the processing

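Of 40 calls of single members (16 of them in the interaction), 25 stayed past both thresholds under every alternative and 15 fell below the fold or the adjusted p under at least 1, with none reversed. In 2 of the 15, both of Scd1, the adjusted p was lost. With library size only, which moved the median of all genes by -0.12 on the log2 scale with DKK1 against untreated, 7 members in place of 12 were called higher there. Upper-quartile factors gave 2 members in place of 1 that fell with IL-13. With IL-13+DKK1 against untreated, 0 members in place of 1 were called higher by upper-quartile factors and by library size only. The 1 interaction above 0 was lost with RLE size factors (0) and with the DESeq2 Wald test (0). The causes of these moves were not tested.

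Leaving out each library in turn gave 1 to 2 members that fell with IL-13, 0 to 3 called higher and 0 to 2 called lower with IL-13+DKK1 against untreated, 1 to 2 called lower against IL-13, 1 to 2 called lower against DKK1, and 0 to 1 interactions above 0. The 16 interactions called lower ranged from 12 to 17 over all alternatives. Upper-quartile factors and library size only each lost those of Acat2, Pmvk, Hsd17b7 and Insig1. With the replicate number as a block, 16 were called, no call of a single member was lost, and no count of members moved by more than 1. Over all genes tested, libraries with the same number did not deviate together (correlations from -0.06 to 0.08), so the numbers were not taken as pairs. The sterol branch mean, however, was lowest in replicate 1 and highest in replicate 3 in every group. The correlations over all genes cannot show whether this branch deviated by number. Depth limits Scd1 most, whose levels rest on few reads per library.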
